A study of Mus musculus with 6 samples.

Results

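The 4364 regions described here are stretches of DNA that were captured with the long non-coding RNA LncMyoD in both replicates and that lie at the ends of protein-coding genes. A region was the union of overlapping peaks (1 bp or more) holding at least 1 peak of each of the 2 deposited peak lists. It had to lie on chromosomes 1 to 19 and to be under 3000 bp wide. Its midpoint had to fall within 1 kb of either end of a protein-coding gene in the RefSeq table of GRCm38.p6, the assembly behind mm10. The 4364 were 4.79% of the 91164 autosomal regions under 3000 bp, and the series held 97493 shared regions in all.

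The captures came from primary C57BL/6 mouse myoblasts of skeletal muscle that had been kept for 2 days in 2% horse serum (HS in the labels) and are labelled differentiated myotubes. In ChIRP, biotinylated DNA probes against an RNA pull down the chromatin to which that RNA is attached. The 6 samples formed 3 groups of 2 replicates: the LncMyoD odd probe pool, the LncMyoD even probe pool and input DNA, all of the same cells. Each replicate's peak list carries a name that the labels give to its odd, even and input samples alike, so the pools could not be set against each other or against input. Nothing in the labels says that the replicates came from separate cultures, and captured DNA holds no expression level against which the labelled cell type could be checked. The lists held 157214 and 179630 peaks with median folds of 8.08 and 8.11, and read depth is unknown. With 1 pooled list per replicate no test over samples was possible. Differences are therefore given as values in each list and by autosome.

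As background, the start of a gene is where the transcription machinery assembles, and many starts in mammals lie in CpG islands, stretches rich in the dinucleotide CpG that are often free of DNA methylation and open in many cell types. The other end holds the polyadenylation signal, where transcription is terminated. LncMyoD is transcribed from the neighbourhood of Myod1, the gene of the muscle-determining factor MyoD, which binds the E-box sequence CANNTG.

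The following 8 promoter windows of the RefSeq sequence table (GRCm38.p6), each running from 250 bases before a gene's start to 50 after it, show the range of DNA found under these regions. Pik3r1 and Ermp1 carried the strongest regions whose summits in both lists fell inside the window. Cd209b and Dpt carried the strongest such regions with fewer than 5 CpG. Elmo1 and Sspn are the members of the muscle gene lists with both summits in the window, and Casq2 and Pomt1 are muscle genes whose strongest region covered the whole window. Capitals mark GGGCGG or its reverse complement, the GC box bound by Sp1-type factors.
Pik3r1 (chr13:101768168-101768467, - strand): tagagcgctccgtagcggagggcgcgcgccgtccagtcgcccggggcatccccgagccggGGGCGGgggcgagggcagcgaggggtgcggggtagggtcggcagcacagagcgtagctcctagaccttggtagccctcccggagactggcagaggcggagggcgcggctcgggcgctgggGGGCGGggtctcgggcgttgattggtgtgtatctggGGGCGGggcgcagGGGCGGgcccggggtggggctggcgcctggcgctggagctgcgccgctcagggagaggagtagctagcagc
Ermp1 (chr19:29648366-29648665, - strand): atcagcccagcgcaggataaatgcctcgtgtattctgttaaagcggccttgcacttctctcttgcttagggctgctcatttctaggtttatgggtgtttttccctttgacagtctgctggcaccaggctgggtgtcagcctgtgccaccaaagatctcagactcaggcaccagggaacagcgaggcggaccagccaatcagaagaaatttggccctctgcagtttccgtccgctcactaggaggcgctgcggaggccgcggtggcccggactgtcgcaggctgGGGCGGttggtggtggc
Cd209b (chr8:3926792-3927091, - strand): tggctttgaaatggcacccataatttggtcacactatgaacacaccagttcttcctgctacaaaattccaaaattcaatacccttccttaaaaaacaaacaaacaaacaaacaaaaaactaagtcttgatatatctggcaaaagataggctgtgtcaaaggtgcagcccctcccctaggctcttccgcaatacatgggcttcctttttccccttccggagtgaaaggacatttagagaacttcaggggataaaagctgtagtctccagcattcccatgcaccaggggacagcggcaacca
Dpt (chr1:164796413-164796712, + strand): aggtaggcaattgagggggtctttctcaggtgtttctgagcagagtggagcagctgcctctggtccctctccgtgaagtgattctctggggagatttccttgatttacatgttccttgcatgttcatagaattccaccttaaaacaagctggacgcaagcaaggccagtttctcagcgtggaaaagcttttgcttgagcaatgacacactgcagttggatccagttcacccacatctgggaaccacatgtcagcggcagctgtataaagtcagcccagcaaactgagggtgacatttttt
Elmo1 (chr13:20090257-20090556, + strand): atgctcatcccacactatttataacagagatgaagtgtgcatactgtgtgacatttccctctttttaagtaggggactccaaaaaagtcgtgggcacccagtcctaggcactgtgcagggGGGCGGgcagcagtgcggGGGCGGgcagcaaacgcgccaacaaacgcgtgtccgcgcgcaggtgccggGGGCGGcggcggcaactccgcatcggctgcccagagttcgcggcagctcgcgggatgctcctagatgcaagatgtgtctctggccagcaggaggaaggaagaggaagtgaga
Sspn (chr6:145931623-145931922, + strand): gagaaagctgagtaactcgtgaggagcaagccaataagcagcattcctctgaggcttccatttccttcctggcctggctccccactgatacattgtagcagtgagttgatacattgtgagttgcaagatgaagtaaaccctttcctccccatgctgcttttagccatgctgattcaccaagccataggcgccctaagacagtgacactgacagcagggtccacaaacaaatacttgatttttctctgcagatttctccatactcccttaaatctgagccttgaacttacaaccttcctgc
Casq2 (chr3:102086165-102086464, + strand): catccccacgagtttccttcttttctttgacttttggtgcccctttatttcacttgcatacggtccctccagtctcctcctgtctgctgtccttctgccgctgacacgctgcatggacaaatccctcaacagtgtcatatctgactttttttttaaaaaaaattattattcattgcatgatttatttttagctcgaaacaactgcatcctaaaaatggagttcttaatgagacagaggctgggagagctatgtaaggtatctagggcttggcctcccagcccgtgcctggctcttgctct
Pomt1 (chr2:32236390-32236689, + strand): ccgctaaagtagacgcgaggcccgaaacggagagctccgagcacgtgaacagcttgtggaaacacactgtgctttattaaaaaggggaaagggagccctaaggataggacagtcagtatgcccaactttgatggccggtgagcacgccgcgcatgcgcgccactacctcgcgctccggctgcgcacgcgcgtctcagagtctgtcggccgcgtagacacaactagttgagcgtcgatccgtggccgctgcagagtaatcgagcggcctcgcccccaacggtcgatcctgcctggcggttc
These windows differed widely in composition. The Pik3r1 window was 75.7% G or C with 34 CpG and 4 GC boxes, and that of Pomt1 held 33 CpG and no GC box. The Cd209b window was 44% G or C with 3 CpG, and Sspn had 2. Dpt, the gene of the extracellular matrix protein dermatopontin, had 7 E-boxes, among them CAGCTG at offsets of -200 and 6 bases from the start. Elmo1 had 1 E-box and 3 GC boxes, and Casq2 had 2 E-boxes.

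Relative to DNA 5 to 10 kb away, shared regions gathered at the starts of genes and not at their other ends. Strand was given for 16456 of the 20661 autosomal protein-coding genes (79.6%), on 18 autosomes. Around the starts of these genes the density of shared regions was 70.5 per kb per 1000 genes within 1 kb and 45.9 at a distance of 5 to 10 kb on both sides, a ratio of 1.53. Around the other ends it was 48.3 within 1 kb and 49.5 at 5 to 10 kb, a ratio of 0.976. Density per kb per 1000 genes has the scale of regions per Mb of window. Beyond 1 kb of any gene end there were 38.3 regions per Mb inside protein-coding genes and 35.8 outside. The other ends and the DNA 5 to 10 kb away were thus both above these values. The ratio at starts was 1.54 ± 0.142 over autosomes (mean and SD, n = 18), from 1.33 on chromosome 8 to 1.90 on chromosome 3. At other ends it was 0.974 ± 0.134, and it was above 1 on 9 of the 18 autosomes. The ratio at starts exceeded that at other ends on 18 of 18.

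**Figure D1:**
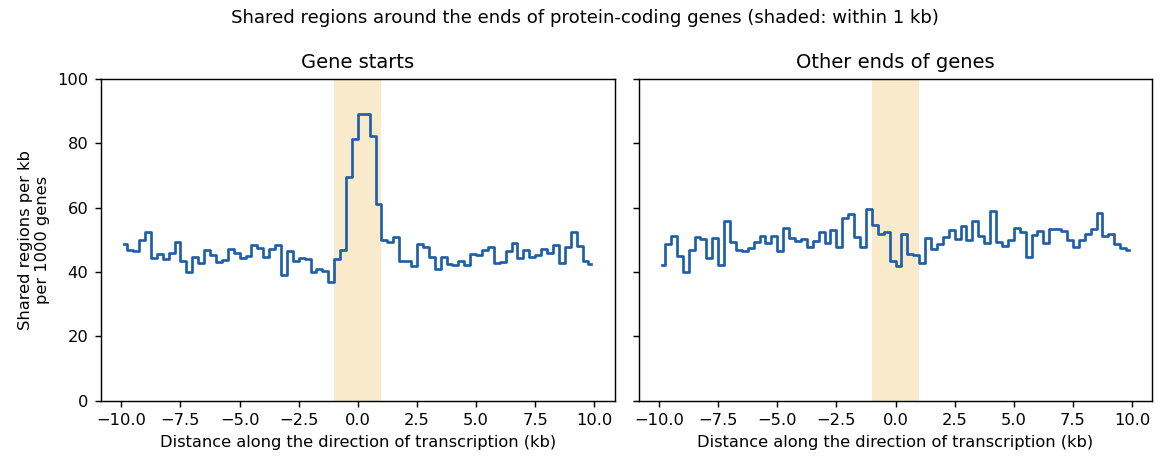
Density of shared regions (regions per kb per 1000 genes) in bins of 250 bp along the direction of transcription, around the starts (left) and the other ends (right) of 16456 protein-coding genes. The curve at starts reaches 89.2 between 250 and 500 bp into the gene, against a mean of 45.9 beyond 5 kb, and the curve at other ends has no such rise.

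The rise at starts was narrow and reached into the gene. It peaked at 89.2 regions per kb per 1000 genes between 250 and 500 bp downstream of the start, 1.94 times the mean beyond 5 kb, and was down to 44.0 between 1000 and 750 bp upstream. Bins of the same size beyond 5 kb ranged from 40.1 to 52.5. At other ends the highest bin had 59.6, against 40.1 to 58.3 beyond 5 kb. Windows 5 to 10 kb from one gene can hold ends of its neighbours.

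The same shape was present in each list taken alone. Peaks of replicate 1 had a ratio of 1.495 at starts and 0.981 at other ends. Peaks of replicate 2 had 1.497 at starts and 1.01 at other ends. In peaks that had no partner in the other list, and that therefore entered no shared region, the ratio at starts was 1.36 in replicate 1 and 1.44 in replicate 2, and it was above 1 on 18 of 18 autosomes in both. Shared regions of at least 20-fold in both lists had a ratio of 1.76 at starts, against 1.42 for regions under 10-fold in both. At other ends these ratios were 1.05 and 0.873.

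Counted by the nearest end, 2063 of the 4364 regions belonged to a start, 1397 to the other end, and 904 to a gene whose strand was not given. Starts thus made up 59.6% of the regions with strand (95% exact binomial interval 58.0 to 61.3%). Intervals here cover counting error only, and neighbouring regions are not independent. Of the regions at starts, 58.9% had their midpoint inside the gene and 53.3% covered the first base. Of those at other ends, 52.7% were centred inside the gene and 47.5% covered the last base.

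By gene, 4320 of 20661 autosomal protein-coding genes (20.9%) had a region at one end or at both. Among the genes with strand, 2228 (13.5%) had one at the start and 1536 (9.33%) at the other end, 324 of them at both ends. A single region was counted at both ends of a short gene if both lay within 1 kb of its midpoint, as at Utf1. The 324 therefore include genes with only a single region. Most genes had 1 region (3868), 431 had 2 and 21 had 3. In the list of replicate 1 alone 29.0% of genes had a peak at an end, in that of replicate 2 alone 33.9%, and 59.8% had none in either list.

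The excess at starts followed the CpG content of the promoter window. Genes were ranked by the number of CpG in 1 window each (14810 genes) and split into quintiles of 2962 genes. In the quintile with the fewest CpG (0 to 3) the density within 1 kb of the start was 37.8 regions per kb per 1000 genes, against 37.9 at 5 to 10 kb, a ratio of 0.997. The ratio was 1.30, 1.55 and 1.81 in the next quintiles. In the quintile with the most CpG (27 to 65) the densities were 96.2 within 1 kb and 44.4 at 5 to 10 kb, a ratio of 2.17.

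Both lists showed this order. In replicate 1 the ratio was 0.976 in the lowest quintile and 2.13 in the highest. In replicate 2 it was 0.971 in the lowest and 2.04 in the highest. At the other ends of the same genes the ratio stayed between 0.842 and 1.12 without an order. CpG number and the share of G and C move together: by G and C content, 6.45% of genes in the lowest quintile had a region at the start and 19.9% in the highest. The part of base composition in this pattern was not tested.

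**Figure D2:**
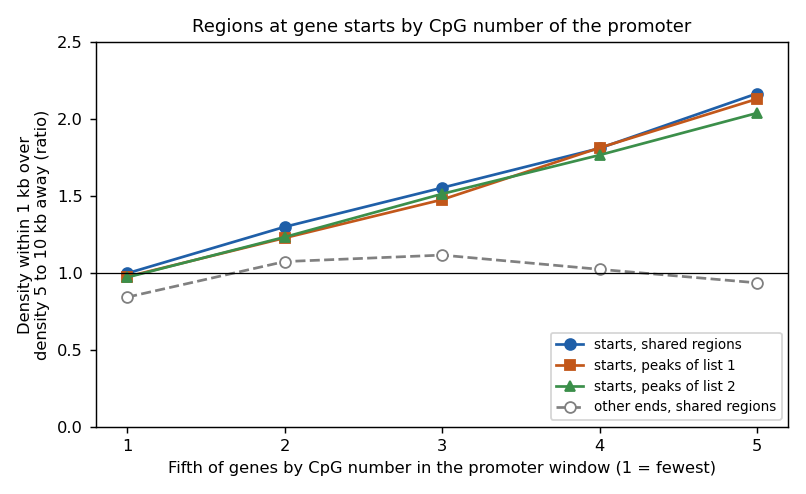
Ratio of the density within 1 kb of a gene end to that 5 to 10 kb away, for quintiles of 14810 genes by number of CpG in the promoter window (fewest at the left). Filled symbols are gene starts for shared regions and for the peaks of each replicate's list, and open symbols are the other ends. The 3 lines for starts climb from about 1 in the lowest quintile to above 2 in the highest, and the line for other ends does not.

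The share of genes with a region at the start, which needs no distant window, had the same order. It was 7.46% in the quintile with the fewest CpG (221 of 2962 genes) and 18.1% in that with the most (536 of 2962). When the olfactory and vomeronasal receptor genes were left out, the shares were 9.93% and 18.1% in the lowest and highest quintiles of the rest. The lists did not share an order of region strength by CpG. In replicate 1 the median fold was 10.7 in the lowest quintile, 12.5 in quintile 4 and 11.6 in the highest. In replicate 2 it was 12.7, 13.4 and 12.4. By G and C content, the median in replicate 1 was 10.3 in the lowest quintile and 11.8 in the highest, and in replicate 2 12.4 in both.

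Promoter windows with a region at the start were richer in G and C (median 60.7% of bases in 2049 windows, against 56.7% in all 14810). In 1491 of the 2049 windows a region was centred within 1 kb of the start but no summit fell inside the window. The shares for windows with a region, E-boxes included, therefore mostly describe DNA near summits and not at them. The median number of CpG was 19 in windows with a region, against 14 in all windows. Motifs were sought on both strands. GGGCGG was present in 58.5% of windows with a region, against 47.8% of all. It was present in 65.4% of the 246 windows that held the summits of both lists, and in 56.0% of the 1491 without a summit. TATAAA, the letters of the TATA box, was present in 9.18% of windows with a region, against 13.9% of all. It was counted at any position in the window, so a hit need not be a TATA box.

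Among the E-box forms counted, only the general one was slightly less frequent in windows with a region. Shares here were not adjusted for the G and C content of the windows. CANNTG was found in 65.8% of them (exact interval 63.7 to 67.9%), against 68.9% of the 12761 windows with none (68.1 to 69.7%) and 68.5% of all. CAGCTG, an E-box favoured by MyoD, was found in 15.1%, against 14.9% of windows with none and 14.9% of all. For CAGGTG the shares were 20.8% with a region, 19.3% with none and 19.5% of all. CACGTG was found in 9.42% with a region (8.19 to 10.8%), against 7.88% with none (7.41 to 8.36%) and 8.09% of all. These 3 motifs are special cases of CANNTG and their counts overlap with it. CCAAT was found in 38.3% of windows with a region, against 39.4% of all, and the repeat GAGAGAGA in 3.07%, against 3.11%.

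Regions at gene ends were about as strong as regions elsewhere. A region's fold is that of its best peak by q, the authors' enrichment at the summit over the caller's background. The median fold in replicate 1 was 11.02 at gene ends, 10.7 elsewhere in protein-coding genes and 10.9 outside them. In replicate 2 it was 12.4 at gene ends and 11.97 in both other places. The median at gene ends was above that of all other regions on 12 of 19 autosomes in each list, and on 9 in both lists at once. Starts had medians of 11.4 and 12.4, and other ends 11.02 and 12.4.

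**Figure D3:**
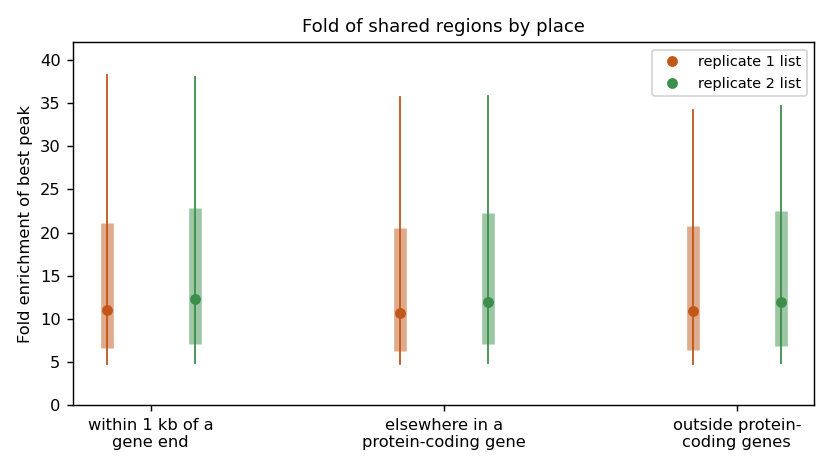
Fold enrichment of the best peak of shared regions at gene ends, in the rest of protein-coding genes and outside genes, in the list of each replicate. Points are medians, thick bars the middle 50% and thin lines the span between the 10th and 90th percentiles. The medians lie between 10.7 and 12.4 in every place.

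The upper tail differed more than the middle. A fold of at least 40 in both lists was reached by 263 of the 4364 regions at gene ends (6.03%, exact interval 5.34 to 6.77%), against 4.92% elsewhere in genes, 4.65% outside genes and 4.83% of all. At 20-fold the shares were 20.9% at gene ends, 19.7% elsewhere in genes, 20.6% outside and 20.3% of all. The 90th percentile of fold was 38.3 and 38.0 at gene ends, against 35.6 and 35.8 elsewhere in genes and 34.2 and 34.6 outside. It was above that of the other regions on 15 of 19 autosomes in replicate 1 and on 16 in replicate 2. Regions at gene ends were also wider, with a median of 811 bp, against 762 bp elsewhere in genes and 740 bp outside, and they were wider than the other regions on 16 autosomes.

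The replicates placed regions at gene ends somewhat less closely together than regions outside genes. The summits of the best peaks of both lists lay a median of 87 bp apart at gene ends, against 81 bp elsewhere in genes and 70 bp outside. They were within 100 bp of each other in 54.7% of regions at gene ends, 56.7% elsewhere in genes and 60.2% outside. Spearman's rank correlation of the folds of the lists was 0.758 across the 4364 regions, 0.746 elsewhere in genes and 0.770 outside. These describe regions that share their libraries. Of the replicate 1 peaks at gene ends 71.6% had a partner in replicate 2, against 67.6% elsewhere in genes and 67.7% outside. Of the replicate 2 peaks at gene ends 58.3% had a partner, against 56.2% elsewhere in genes and 58.7% outside.

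The strongest regions at gene ends belonged to genes of many kinds. The order used here is by percentile of −log10 q, averaged over the replicates. Among the first 12 was Lman1, whose product carries cargo from the endoplasmic reticulum to the Golgi, with 93.5-fold in replicate 1 and 79.4-fold in replicate 2, number 34 among all 91164. The Fc receptor-like gene Fcrls had 92.2-fold and 79.4-fold beyond its other end. Sdr16c5, a retinol dehydrogenase gene, had 89.9-fold and 77.5-fold.

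Starts predominated among the rest of the first 12. At Shc2, which encodes a signalling adaptor, the region was centred 19 bp inside the gene with 80.9-fold and 81.3-fold. Pou3f3, a POU-domain factor of the nervous system, had 85.5-fold and 76.3-fold in a region centred upstream of its start. Btbd1 had 94.0-fold and 71.2-fold, and its strand was not given. Tmem168 had 92.9-fold and 72.6-fold across its start, and Cnfn, the gene of the skin protein cornifelin, 65.4-fold and 77.5-fold. Pik3r1, which encodes the regulatory subunit of PI 3-kinase, had 88.9-fold and 73.5-fold, with summits at offsets of -111 and -120 bases from the start, inside the window printed above. Ermp1 had 88.5-fold and 73.5-fold, and the GTPase-activating gene Arhgap28 82.9-fold and 73.2-fold. None of the genes named here is in the gene lists used here.

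**Figure D4:**
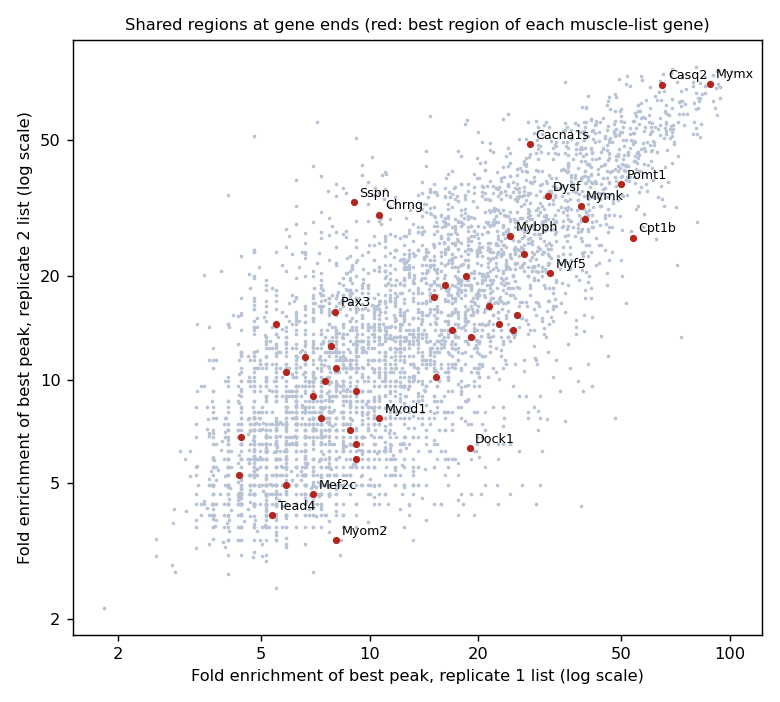
Fold enrichment of the best peak in the replicate 2 list against that in the replicate 1 list, both on log scales, for the 4364 shared regions at gene ends (grey) and for the best region of each gene of the 7 muscle lists (red). Mymx and Casq2 lie in the upper right corner, and Myod1, Mef2c and Tead4 in the dense lower part.

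Muscle genes were counted by role against the 20.9% of all genes. Among 20 genes of myoblast fusion, 9 had a region at an end (45%, exact interval 23.1 to 68.5%). Mymx, which encodes the fusion peptide myomixer, was 13th of the 4364 with 88.5-fold and 72.9-fold. Mymk, the gene of its partner myomaker, had 38.6-fold and 32.1-fold. Elmo1 and Dock1, whose products together activate the GTPase Rac during fusion, differed: Elmo1 had 39.8-fold and 29.3-fold, whereas Dock1 had 18.98-fold and 6.32-fold.

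The remaining fusion genes were adhesion and membrane genes. Cdh15, encoding M-cadherin, had 26.8-fold and 23.2-fold in a region centred upstream of its start, and Cdh2, encoding N-cadherin, 16.9-fold and 13.9-fold. The integrin gene Itgb1 had 8.08-fold and 10.8-fold. Jam3, a junctional adhesion gene, had 9.18-fold and 9.27-fold, and the muscle caveolin gene Cav3 5.88-fold and 10.5-fold. Bsg, Cd9, Cd81, Nphs1, Dock5, Rac1 and Adgrb1 had no peak of either list at an end. Kirrel, Stab2, Jam2 and Myof had one in replicate 2 only. The count is 5 when summits must lie within 200 bp of each other, a setting that leaves 3386 of the 4320 genes in all. It is 13 in the replicate 2 list alone, where 33.9% of all genes had a peak at an end.

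Of the 30 myogenic regulators, 8 had a region at an end (26.7%, interval 12.3 to 45.9%), and 1 of them reached 20-fold in both lists. That one was Myf5, the bHLH factor first expressed in the lineage, with 31.8-fold and 20.4-fold at chr10:107486147-107487142, across its start. Pax3, a factor of muscle precursors, had 8.02-fold and 15.8-fold. Myod1 itself had 10.7-fold and 7.72-fold, number 2662 in the order. The acetyltransferase gene Kat2b had 7.52-fold and 9.88-fold at its start.

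The other members of this list were weaker. Mef2c, a MADS-box partner of MyoD, had 6.98-fold and 4.63-fold at its other end. Carm1, an arginine methyltransferase gene, had 4.41-fold and 6.79-fold, and Rbm24, encoding an RNA-binding protein, 5.88-fold and 4.94-fold. Tead4, a factor that binds MCAT elements, had 5.37-fold and 4.02-fold. Of the 22 regulators without a region at an end, 14 had no peak of either list there, among them Myf6, Pax7, Six4, Mef2a, Mef2d, Tcf3, Tcf12, Id3, Rb1, Runx1, Klf5, Cdkn1a and Srf. These were 14 of the 30 regulators, and 59.8% of all genes had no peak of either list at an end. Myog, Id2, Smyd1, Myocd and Ep300 had a peak in replicate 2 only and Cdkn1c in replicate 1 only. Eya1 and Id1 had peaks in both lists at an end that formed no qualifying region within 1 kb.

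The dystrophin complex and membrane repair list had 7 of 16 genes with a region (43.8%, interval 19.8 to 70.1%). Pomt1, whose enzyme starts the sugar chains of dystroglycan, led with 49.95-fold and 37.1-fold, with summits at offsets of 155 and 151 bases from the start. Dysf, the gene of the membrane repair protein dysferlin, had 31.2-fold and 34.3-fold in a region centred upstream of its start. Sspn, encoding sarcospan, had 9.02-fold and 32.9-fold in its best region and a second, weaker one over the window printed above. Lama2, a laminin gene, had 15.1-fold and 17.5-fold and Sgca, a sarcoglycan gene, 24.98-fold and 13.9-fold. The dystroglycan gene Dag1 had 6.98-fold and 8.96-fold. The count is 4 of 16 when summits must lie within 200 bp of each other, a setting that leaves 3386 of the 4320 genes in all.

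Excitation-contraction coupling had 5 of 23 genes (21.7%), close to the share of all genes. Casq2, which encodes a calcium-binding protein of the sarcoplasmic reticulum, was 16th of the 4364 with 65.1-fold and 72.4-fold, with summits at offsets of -444 (replicate 1) and 46 bases (replicate 2) from the start. Cacna1s, the gene of the voltage sensor subunit, had 27.8-fold and 48.5-fold at its other end. Asph had 22.9-fold and 14.5-fold and the sodium channel gene Scn4a 7.79-fold and 12.5-fold. Cacng1, a calcium channel subunit gene, had 4.35-fold and 5.25-fold.

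At the neuromuscular junction 3 of 15 genes had a region (20%). The acetylcholine receptor subunit genes Chrna1 (18.6-fold and 20.1-fold) and Chrng (10.7-fold and 30.3-fold) carried it at the other end of the gene, and Agrn, encoding the clustering factor agrin, at the start (8.81-fold and 7.10-fold). Muscle metabolism had 6 of 20 (30%). They were led by Cpt1b, for mitochondrial fatty acid import (54.0-fold and 25.9-fold), Ppargc1a, a coactivator of mitochondrial genes (16.2-fold and 18.8-fold), and the pyruvate kinase gene Pkm (25.7-fold and 15.5-fold).

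Of 48 sarcomere genes, 6 had a region at an end (12.5%), and the interval of 4.73 to 25.2% includes the 20.9% of all genes. No peak of either list was there in 32 of the 48, against 59.8% of all genes. Mybph, encoding a myosin-binding protein, led with 24.6-fold and 26.2-fold, 934 bp into the gene. Actn2, the gene of the Z-disc protein alpha-actinin, had 21.5-fold and 16.4-fold upstream of its start. The slow myosin gene Myh7 had 19.1-fold and 13.3-fold. Mylpf, Tnnc2 and Myom2 were weaker, the highest being 15.3-fold for Mylpf. In either list alone 11 of the 48 sarcomere genes had a peak at an end, against 29.0% (replicate 1) and 33.9% (replicate 2) of all genes. A window of 500 bp left 1 of the 48, and 2518 of all 20661 genes.

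Lists with no link to muscle spanned a similar range. Of 16 pluripotency genes 6 had a region (37.5%), Prdm14 first (19.8-fold and 44.2-fold), Fgf4 (18.7-fold and 23.2-fold) and Dnmt3l (18.9-fold and 13.4-fold). Blood genes had 6 of 20 (30%), led by the T cell kinase gene Zap70 (40.4-fold and 67.0-fold), the platelet integrin gene Itga2b (41.2-fold and 46.9-fold) and Cd8a (28.3-fold and 23.5-fold). In the hepatocyte list the count was 6 of 22 (27.3%), with Cps1 of the urea cycle (34.9-fold and 45.7-fold), Hpx and Tat foremost. Neuronal genes had 3 of 23 (13.0%), namely Gad1, Grin2b and Syt1. Among 24 markers of other cell types found in muscle tissue, Csf1r and Acta2 had a region (8.33%).

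Lists of general cell functions spread to both sides of the 20.9% of all genes. Ubiquitously expressed genes had 7 of 23 (30.4%), led by Ywhaz (44.1-fold and 13.4-fold), Eef2 (11.1-fold and 16.3-fold) and the actin gene Actb (11.8-fold and 14.8-fold). Of 34 cell cycle genes 7 had one (20.6%), among them the cyclin gene Ccnb2 (51.4-fold and 72.9-fold), Cdk4 (36.03-fold and 21.0-fold) and Ccne1 (16.7-fold and 22.2-fold). Oxidative phosphorylation had 4 of 30 (13.3%), with Cox8b (13.2-fold and 10.2-fold) and Sdhd among them. Over all 15 lists, 85 of 362 genes had a region (23.5%, interval 19.2 to 28.2%).

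**Figure D5:**
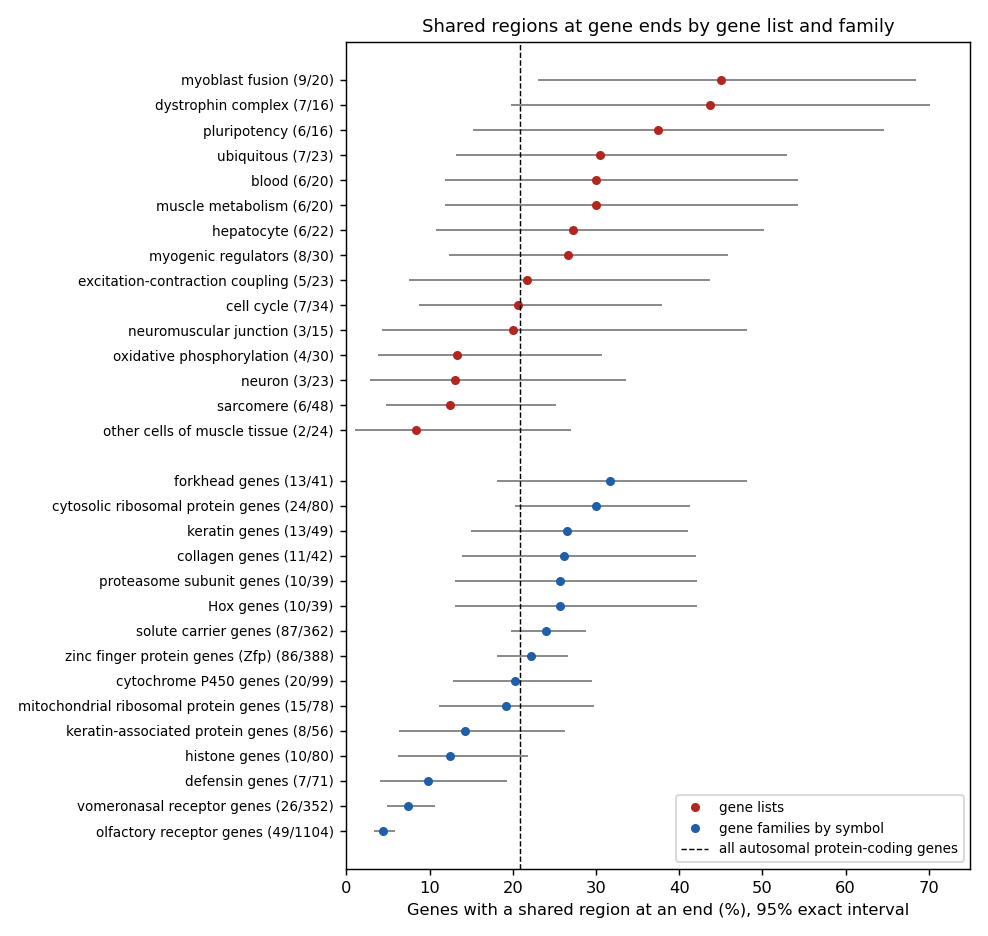
Share of genes with a shared region within 1 kb of an end, for 15 gene lists (red, each sorted by share) and 15 gene families taken by symbol (blue), with 95% exact binomial intervals and counts in parentheses. The dashed line is the 20.9% of all autosomal protein-coding genes. Olfactory and vomeronasal receptor families lie far to the left of it, and most small lists have intervals that include it.

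Gene families taken by symbol differed most for the chemosensory receptors. Of 1104 olfactory receptor genes, which are short, clustered and active in the nose, 49 had a region at an end (4.44%, interval 3.30 to 5.83%). Of 352 vomeronasal receptor genes, 26 did (7.39%). At the starts of olfactory receptor genes the density was 17.6 regions per kb per 1000 genes, against 30.7 at 5 to 10 kb, a ratio of 0.573. The density at the starts of vomeronasal receptor genes was 37.5, against 22.2 at 5 to 10 kb, a ratio of 1.69. That ratio rested on a count of 24 within 1 kb. Median gene lengths were 950 bp (olfactory) and 960 bp (vomeronasal), so most windows at these starts also held the other end of the gene. The strongest olfactory receptor region, at Olfr763, had 39.9-fold and 62.5-fold, and that at Olfr9 52.9-fold and 54.2-fold. Of 71 defensin genes, 7 had a region (9.86%).

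Several other families had shares above 20.9%, with intervals that included it. Cytosolic ribosomal protein genes had 24 of 80 (30%, interval 20.3 to 41.3%), led by Rps6 (58.4-fold and 54.4-fold) and Rps28 (49.6-fold and 52.6-fold), both across the start. The forkhead genes had 13 of 41 (31.7%), led by Foxa3 (35.6-fold and 28.1-fold). Proteasome subunits had 10 of 39 (25.6%), led by Psmb3 (48.1-fold and 51.9-fold), and Hox genes 10 of 39, led by Hoxb13 (47.1-fold and 40.7-fold). Collagen genes had 11 of 42 (26.2%), led by Col7a1 (42.6-fold and 55.6-fold), and keratin genes 13 of 49 (26.5%). Zfp zinc finger genes had 86 of 388 (22.2%), led by Zfp654 (75.7-fold and 70.4-fold), and solute carrier genes 87 of 362 (24.0%).

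Families near or below the background completed the set. Mitochondrial ribosomal protein genes had 15 of 78 (19.2%) and cytochrome P450 genes 20 of 99 (20.2%). Histone genes had 10 of 80 (12.5%), led by H4c4 (47.7-fold and 52.5-fold), and keratin-associated protein genes 8 of 56 (14.3%). In the shortest quintile of all genes (144 to 4389 bp), whose windows at both ends can overlap, 16.9% had a region. The other quintiles had 20.7 to 23.6%. Olfactory and vomeronasal receptor genes, with median lengths of 950 and 960 bp and shares of 4.44% and 7.39%, were not left out. Length was therefore not separated from these families.

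Some regions lay near the ends of several genes. Of the 4364, 422 (9.67%) lay within 1 kb of ends of at least 2 genes. A pair of starts was within reach of 138 regions, a start and another gene's or its own other end of 173, and at least 2 other ends of 93. One region (68.1-fold and 59.0-fold) was centred upstream of the start of Zfp28 and beyond the other end of Zfp78. Another (55.8-fold and 44.2-fold) was centred 230 bp inside the start of Krt90 and beyond the other end of Krt75.

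The share of shared regions that lay at gene ends varied between chromosomes, from 3.32% on chromosome 1 to 7.11% on chromosome 11. Windows within 1 kb of gene ends covered 3.07% of the autosomal span and held 58.4 regions per Mb, against 38.3 elsewhere in genes and 35.8 outside. The limit of 1 kb cut through a continuum. The regions just inside it were at Map4k4 (8.24-fold and 16.7-fold) and Mybl2 (8.95-fold and 10.8-fold), each 1000 bp from the end. Just outside, at 1002 bp, were a region at Jam3 (40.1-fold and 40.2-fold) and one at 1700093K21Rik (28.6-fold and 21.9-fold).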

How the data were processed

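Tools listed by the submitters' processing notes were Bowtie2 (2.3.2), Picard (2.9.2) and MACS2 (2.1.1), with mm10 as the build; their order, parameters and control, and whether odd and even libraries were merged, are not stated there. The authors deposited, per peak, a fold (a ratio at the summit to the background of the peak caller), a q-value as −log10 and the summit position. Each value describes 1 peak of 1 pooled list, so it has no SD. Genes and strands came from RefSeq tables of GRCm38.p6, and 1 promoter window was kept per gene, the one nearest the gene's end within 1 kb. As a check of window direction, TATAAA was read more often as given (221 and 213 windows on the + and - strands) than reversed (38 and 58).

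Named genes followed a written rule: the 12 strongest regions, all myogenic regulators and fusion genes, the 3 strongest of each other list, and the regions nearest the 1 kb limit. A few genes under this rule are not reported here. Further genes, 6 of the 8 printed windows, the 15 families' examples and all densities at 5 to 10 kb were chosen after values were seen. The members and gene lists were chosen with earlier results of these data known. The planned 3 genes with most regions were not singled out, because 21 genes tied; Eef2 was picked from them after its values were seen. The density code was tested on simulated data. Software: Python (3.11.15) with pandas (2.3.3), numpy (2.4.6), matplotlib (3.10.9) for figures and scipy (1.17.1) for exact intervals. Alternatives are given in the closing section.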

Additional observations from a re-analysis of the deposited data

Results flagged for a closer look

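Regions that the rule left out were counted at gene ends in the same way. Among shared regions of 3000 bp or wider, 53 of 543 (9.76%) had their midpoint within 1 kb of a protein-coding gene end, with median folds of 40.8 and 49.7. On chromosome X, 103 of 3209 shared regions under 3000 bp (3.21%) did so, with median folds of 11.8 and 10.8. The share of autosomal regions under 3000 bp was 4.79%, and windows at gene ends covered 3.07% of the autosomal span. The span of such windows on chromosome X was not computed, so no excess at gene ends is shown there. No control list was analysed here.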

How the results depend on the processing

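The density at gene starts exceeded that at other ends, each relative to 5 to 10 kb away, under 9 of 9 alternatives (the windows of 500 bp and 2 kb were not run for it). Under a reciprocal overlap of 50% there were 2781 regions at gene ends (4.55% of shared regions) at 2859 genes, with a median fold of 11.8 in replicate 1. With the 10000 strongest peaks of each list there were 353 (5.93%) at 383 genes, 6 of them in the gene lists; the median folds were 51.8 and 51.3, the ratio to other regions in replicate 1 was 0.982, 61.9% lay nearest a start, and the density ratios were 1.94 at starts and 1.11 at other ends. A window of 500 bp gave 2447 regions (2.68%) at 2518 genes (43 in the lists), 63.0% nearest a start. A window of 2 kb gave 7441 (8.16%) at 6880 genes (136 in the lists), 55.0% nearest a start. Medians became 12.1 and 13.3 at −log10 q of at least 5, and 13.6 and 14.8 at a fold of at least 5. With 1 list alone there were 6765 to 8068 peaks at gene ends (4.62 to 4.76%) at 5961 to 6989 genes (105 to 133 in the lists), 58.4 to 59.2% nearest a start, with median folds of 8.45 in replicate 1 and 8.03 in replicate 2 and ratios to other peaks of 1.05 and 0.990. Their density ratios were 1.493 to 1.496 at starts and 0.979 to 1.01 at other ends. Counting only windows with both summits moved GGGCGG from 58.5% to 65.4% (exact interval 59.1 to 71.4%). CAGCTG became 13.4% (33 of 246 windows), and its interval of 9.42 to 18.3% includes the main 15.1%. Of 330 counts for single lists and families, 225 stayed within 1.5 times. The cause of these shifts was not tested beyond the smaller or larger number of peaks. No paired analysis was possible because each list pools the groups of its replicate. Without reads, depth sets an unknown limit on weak regions.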

Other observations

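Overlaps with genes of small RNAs were few and were not tested. A microRNA gene was overlapped by 11 of the 4364 (0.252%), against 0.0971% of regions elsewhere in protein-coding genes and 0.0335% outside. A snoRNA gene was overlapped by 4 (0.0917%), against 0.0416% elsewhere in genes and 0.0768% outside, and a tRNA gene by 2 (0.0458%), against 0.00555% and 0.0236%. A long non-coding RNA gene was overlapped by 396 (9.07%), against 4.99% elsewhere in genes and 13.1% outside, and a pseudogene by 15 (0.344%), against 0.641% and 2.301%.

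Eef2, which encodes the translation elongation factor eEF2, was 1 of the 21 genes with 3 regions at its ends. A region at its start had 5.92-fold and 10.7-fold, and 2 regions at its other end had 11.1-fold and 16.3-fold, and 5.56-fold and 12.02-fold.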
